A study of Mus musculus with 5 samples.

Results

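This account covers the Pou4f1 CUT&Tag regions at 9 mouse homeobox genes of retinal progenitors, photoreceptors and their neighbours: Pax6, Rax, Vsx1, Six3, Six6, Lhx2, Otx2, Crx and Meis2. A region was assigned to a gene when it overlapped the gene body or lay within 50 kb of it on mm10, with gene bodies from GENCODE M21. By this rule 9 of the 8038 deposited regions belonged to 5 of the 9 genes. Six3 had 3 regions, Rax and Six6 had 2 each, and Pax6 and Lhx2 had 1 each. Vsx1, Otx2, Crx and Meis2 had none. The study mapped Pou4f1 in wild-type (WT) mouse retina at the embryonic stage E16.5, in cells freed with papain from retinas pooled 4 to a sample. The groups used here were rabbit anti-Pou4f1 antibody (2 libraries) and rabbit IgG (2 libraries), and all 4 came from the same genotype and stage without treatment. A library made with a rabbit anti-H3K9AC antibody was not analysed here.

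CUT&Tag uses an antibody to bring a transposase to the chromatin where a protein sits, so that the DNA around it is cut and sequenced. Pou4f1, also called Brn3a, is a class IV POU homeodomain factor of differentiated retinal ganglion cells (RGCs), the output neurons of the retina. The 9 genes encode homeodomain factors that act mostly in other retinal cells. Pax6, Rax, Six3, Six6 and Lhx2 form the eye field network and are kept on in dividing retinal progenitors, where they hold the cells in a multipotent state. Otx2 directs cells toward the photoreceptor and bipolar fates, Crx acts under it to switch on photoreceptor genes, Vsx1 acts in cone bipolar cells, and Meis2 belongs to the TALE family used in early progenitors and in subsets of amacrine cells and RGCs. The whole retina was dissociated without sorting, so a value is a sum over all retinal cell types, and the files give no expression by which the cell types could be checked. Pax6 is itself expressed in RGCs, as well as in progenitors and amacrine cells.

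The sequences that bear on Pou4f1 at these genes are shown first. Class IV POU factors prefer a 10-base AT-rich element, searched here on both strands as ATNAATAATT or ATNAATTATT, with any base allowed at N. It was present in 1 of the 9 regions, the intronic region of Lhx2 at chr2:38357228-38357861, against 11.1% of the 8028 regions of the table on assembled chromosomes. Among regions more than 1 kb from any transcription start, as the Lhx2 region is, the share was 26.1%. The following stretch is chr2:38357309-38357508 of mm10, plus strand, with the match in capitals (ATGAATAATT when read on the minus strand, chr2:38357404-38357413, 136 bp from the centre of the region).
Lhx2 intron: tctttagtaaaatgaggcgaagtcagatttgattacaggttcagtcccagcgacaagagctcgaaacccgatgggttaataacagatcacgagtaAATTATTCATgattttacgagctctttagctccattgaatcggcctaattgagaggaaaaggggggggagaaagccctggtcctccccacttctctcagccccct

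The octamer ATGCAAAT, the element of POU factors of other classes such as Oct1, was found in 1 of the 9 regions, the one over an internal start of Pax6, against 3.64% of all regions. It lay 112 bp from the centre of the region, on the minus strand of an exon that is 5′ UTR in Pax6 transcripts, and is shown in capitals within chr2:105675428-105675455, plus strand.
Pax6 internal start: cgagcggtgcATTTGCATgttgcggagt

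The highest 2 of the 9 regions, downstream and upstream of Six3, held no full match. Their closest stretches to the POU element differed from it by 1 letter, a comparison added after the exact matches had been seen. These stretches are given in capitals within chr17:85646030-85646229 and chr17:85609356-85609555, both plus strand, and in the upstream region 2 overlapping closest stretches merge into the capitals.
Six3 downstream: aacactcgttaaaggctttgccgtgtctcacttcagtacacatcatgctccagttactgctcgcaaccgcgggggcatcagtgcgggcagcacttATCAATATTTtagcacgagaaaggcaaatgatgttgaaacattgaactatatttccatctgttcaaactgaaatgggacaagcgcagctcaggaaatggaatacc
Six3 upstream: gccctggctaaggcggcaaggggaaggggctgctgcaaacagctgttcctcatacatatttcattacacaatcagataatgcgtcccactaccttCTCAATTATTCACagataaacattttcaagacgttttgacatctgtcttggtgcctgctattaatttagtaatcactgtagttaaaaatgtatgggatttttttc

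Stretches with at most 1 unlike letter were common in the table. They occurred in 34.4% of all regions and in 69.7% of those more than 1 kb from any transcription start. Their presence near Six3 was therefore not unusual. The 10 letters in capitals downstream of Six3 are also the first 10 of a Pou4f1 site that the paper cites in the Sncg promoter. The paper describes that site as able to drive Pou4f1-dependent enhancer activity in a cell line. How often these 10 letters occur in the table was not counted. Among the 9, the Lhx2 intron and the outer regions of Six3 had at most 1 unlike letter, and in the other 6 the closest stretch differed by 2 or 3 letters. Among the 9 genes, RefSeq promoter windows (GRCm38.p6, 250 bases before to 50 after a start) were held for 8, and that of Six6 was the one a region overlapped. The part of this window outside any UTR, chr12:72939632-72939721 on the plus strand, is shown with its 5 CpG dinucleotides in capitals. The whole region over the Six6 start held 6.31 CpG per 100 bp, close to the median of 5.96 for all regions. The stretch also overlaps an exon of 4930447C04Rik, a protein-coding gene on the opposite strand.
Six6 promoter: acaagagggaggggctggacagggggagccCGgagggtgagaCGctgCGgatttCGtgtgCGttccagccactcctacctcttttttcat

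The base composition of the 9 regions ranged from 53.9 to 72.4% GC, with a median of 58.1%, close to the median of 59.6% for all regions. The region past the end of Six6 was at the top of this range. The homeodomain core TAATTA, which can overlap the POU element, was found in 1 of the 9 regions against 14.1% of all regions. The OTX and CRX core TAATCC was likewise in 1 of the 9 against 19.2%. Both lay in the Lhx2 intron, so this region held the POU element, TAATTA and TAATCC. Among regions more than 1 kb from any start, TAATTA was in 27.5% and TAATCC in 23.9%. A match is a description of letters, and occupancy of none of these stretches was measured.

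**Figure D1:**
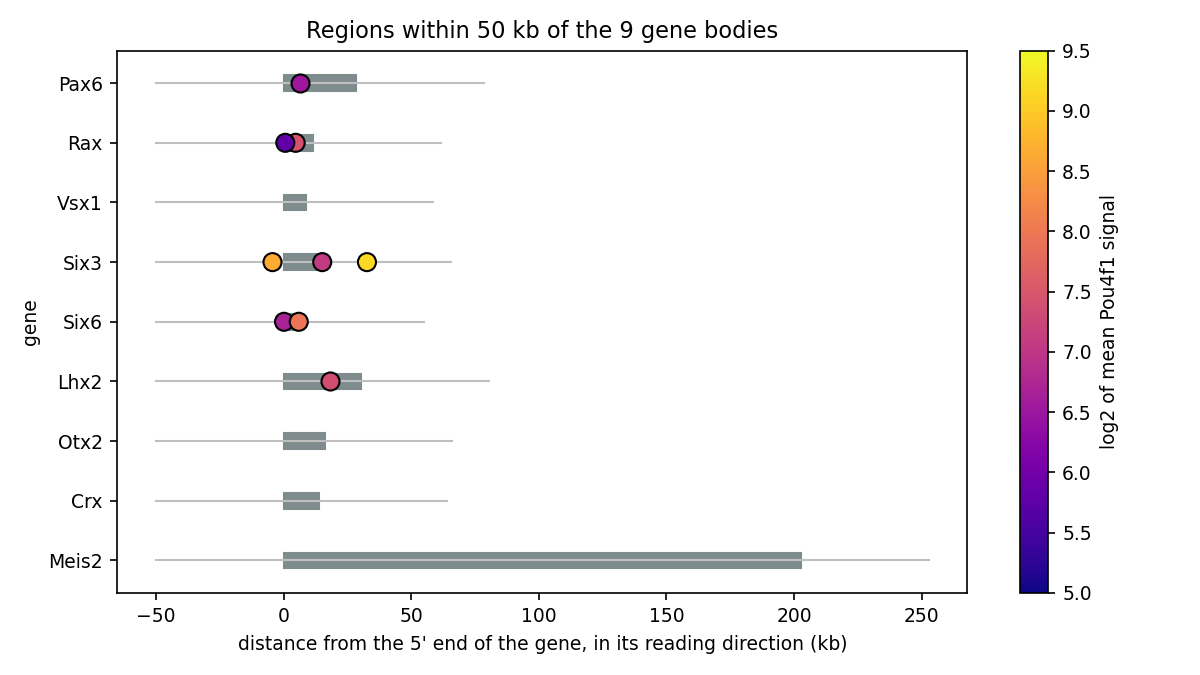
Position of the 9 regions at the 9 genes, as the distance in kb of the midpoint of each region from the 5′ end of the gene body in its reading direction, with gene bodies as grey bars, the 50 kb on each side as thin lines and colour for the log2 of the mean Pou4f1 signal. The brightest points are the upstream and downstream regions of Six3, and the lines of Vsx1, Otx2, Crx and Meis2 carry no point.

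The deposited value of a region is a signal, the coverage averaged over its length. All regions had been called from the Pou4f1 signal. The tests of Pou4f1 against the controls below therefore describe each region and are no independent evidence of binding. Regions were ranked from 1 (highest) to 8038 by the mean of both Pou4f1 replicates. The 9 regions had a median of this mean of 164, against 173 for the whole table, and 3 of the 9 were above the table's median. Their median length was 982 bp, against 995 bp for all regions. These genes were therefore ordinary in signal as a group, apart from the 2 outer regions of Six3, which ranked 218 and 712.

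Six3 represses Wnt signalling in the anterior neural plate, and is needed for the rostral forebrain and the eye. Its gene body in GENCODE M21 spans chr17:85613608-85629302 on the plus strand, and the RefSeq start lies inside this span at chr17:85620834. The first region, chr17:85608512-85609985 (1474 bp), lay 3.62 kb upstream of the gene body and 11.6 kb upstream of the RefSeq start. All of it was exon sequence of Six3os1, a noncoding transcript on the opposite strand. The signal was 383 and 421 in Pou4f1 replicates 1 and 2, while the control libraries, named IgG and negative control, stood at 4.14 and 9.65. Both Pou4f1 values were far above both controls, and the region ranked 712, within the top 8.86% of the table. The log2 difference was 5.77 ± 0.56 (SE, limma, n = 2 against 2, adjusted p = 0.00596).

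The second region of Six3, chr17:85628297-85629163 (867 bp), was wholly exon sequence annotated as UTR near the 3′ end of the gene, called its 3′ UTR here. Its midpoint lay 7699 bp downstream of the closest annotated start of Six3, that of ENSMUST00000162695.2. Its Pou4f1 signal was 139 and 130, and its control signal was 19.3 and 29.1. The controls were present in both libraries here but well below Pou4f1, and the log2 difference was 2.45 ± 0.44 (SE, limma, adjusted p = 0.0227). It fell to 1.48 with the control signal doubled and to 0.50 with it multiplied by 4, and passed in neither (adjusted p = 0.086 and 0.383, limma). With equal column totals this difference turned to -1.53, and those of the upstream and downstream regions fell to 1.92 and 0.85 and no longer passed (adjusted p = 0.111 and 0.545, limma). The third region, chr17:85645777-85646751 (975 bp), was intergenic, 16475 bp past the end of Six3. Its signal was 485 and 661 in Pou4f1 against 24.6 and 14.6 in the controls. It had the highest Pou4f1 signal of the 9, ranked 218 in the table (top 2.71%) and 136 of the 2881 regions away from a start, and differed by 4.83 ± 0.50 on the log2 scale (SE, limma, adjusted p = 0.00691). It was the member farthest from its gene body and also lay 37.5 kb from Six2, the neighbouring paralogue, so the assignment to Six3 rests on distance. No region lay on the start of Six3. At least 3 regions within 50 kb, as at Six3, were found for 8.66% of the 21755 protein-coding genes.

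Six6 is a close relative of Six3 in the eye and pituitary and keeps progenitors dividing. Its body is chr12:72939892-72944899 on the plus strand. The region over its start, chr12:72939452-72940640 (1189 bp), held 736 bp of exon 1, 572 bp of it coding, and its midpoint lay 154 bp downstream of the start. Pou4f1 signal was 132 and 70.9, and the controls were at 0 and 23.9. Both replicates exceeded both controls, but the controls were far apart, and the log2 difference of 4.29 ± 1.90 did not pass the threshold (SE, limma, adjusted p = 0.113). This window also holds the start of the opposite-strand gene 4930447C04Rik, 37 bp from the midpoint, and the start to which the signal belongs cannot be told apart. The second region of Six6, chr12:72945502-72946149 (648 bp), lay 603 bp past the end of the gene, over the start of the long noncoding RNA Gm26709. Its Pou4f1 signal was 177 and 318, and its controls were 54 and 0. The value of 54 was the highest control value of the 9 regions, and the difference of 5.01 ± 2.33 did not pass the threshold (SE, limma, adjusted p = 0.124).

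Rax, also called Rx, is needed to form the eye at all and stays on in progenitors and later photoreceptors. Its body is chr18:65928277-65939787 on the minus strand. The region called its start here, chr18:65938513-65939746 (1234 bp), covered 5 annotated transcript starts but ended short of the 5′ end of the gene body. Its midpoint lay 24 bp from the closest of these starts, that of ENSMUST00000238035.1, and 658 bp past the 5′ end of the body. The region was wholly within exons of the antisense transcript Raxos1. Pou4f1 replicate 1 stood at 90.9 and replicate 2 at 20.8, beside controls of 14.8 and 17.3. Replicate 2 was 1.2 times the higher control, so the separation rested on replicate 1. The region had the lowest rank of the 9, 7865, and its log2 difference of 1.40 ± 0.90 did not pass the threshold (SE, limma, adjusted p = 0.219). Its direction also depended on the scaling and turned to -0.54 with the control signal multiplied by 4 and to -2.54 with equal column totals. The second region of Rax, chr18:65934585-65935566 (982 bp), lay over exon 3, the last of the principal transcript, with 483 bp of coding sequence. Here the signal was 140 and 203, and both controls were listed at 0. It was the single member without any control signal, and its difference on the log2(signal + 1) scale, 7.41 ± 0.43, passed the threshold (SE, limma, adjusted p = 0.00222). With both controls at 0, the size of this difference is set by the pseudocount and no fold is given.

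Pax6, a paired-box factor of the eye field network, has several alternative promoters. Its body is chr2:105668900-105697364 on the plus strand. The region, chr2:105674796-105675862 (1067 bp), lay 6.43 kb past the 5′ end of the gene and covered 5 annotated transcript starts. The closest of them, that of ENSMUST00000111085.7, was 104 bp from the midpoint. Exons made up 754 bp of it and no coding sequence was included. Pou4f1 signal was 93 and 89.4, the pair of replicates closest to each other at a start, while the controls were 0 and 0.417. The Pou4f1 signal was low for the table (rank 7049 of 8038), but the near absence of control signal gave a difference of 6.28 ± 0.42 that passed the threshold (SE, limma, adjusted p = 0.00268). With controls so near 0 the size of this difference is set by the pseudocount, and it was 8.65 with a pseudocount of 0.1 and 3.31 with one of 10. With equal column totals it no longer passed (adjusted p = 0.0651, limma). No region overlapped either RefSeq promoter window of Pax6.

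Lhx2, a LIM homeodomain factor of the optic vesicle and of progenitors and Müller glia, had 1 region, chr2:38357228-38357861 (634 bp), in the third intron of its principal transcript. The gene body is chr2:38339281-38369733 on the plus strand. Pou4f1 signal was 191 and 136, and the libraries named IgG and negative control stood at 18.6 and 0. Both Pou4f1 values were above the controls, and the region ranked 4339, but the difference of 5.19 ± 1.74 did not pass the threshold (SE, limma, adjusted p = 0.0689). It was the member with the full POU element shown above.

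**Figure D2:**
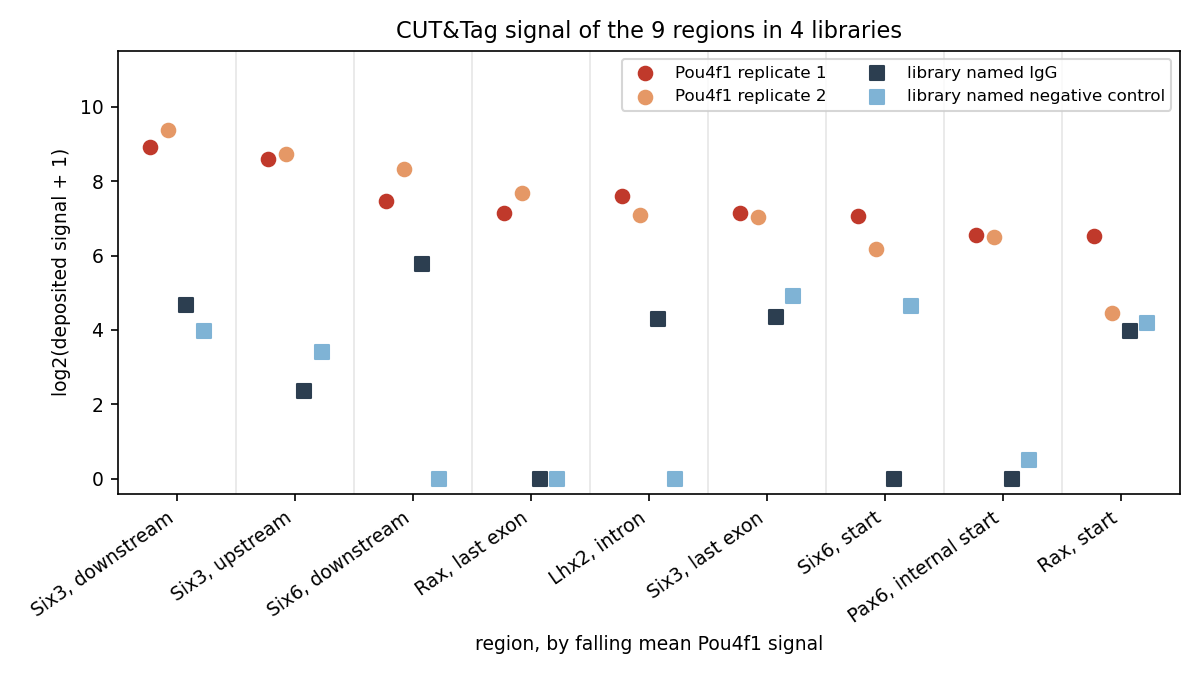
Deposited signal of each of the 9 regions on the log2(signal + 1) scale in the 4 libraries, with Pou4f1 replicates as circles and controls as squares, and regions ordered by mean Pou4f1 signal. In all 9 regions both circles lie above both squares, with the smallest gap at the start of Rax (20.8 against 17.3), an order that held in 3 regions with equal column totals, and 5 regions have a control at 0.

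In all, 5 of the 9 regions passed the threshold as higher in Pou4f1, against 64.8% of all regions tested, and 0 passed as lower, against 0.224%. Those that passed were the single region of Pax6, the exon 3 region of Rax and the 3 regions of Six3. The median log2 difference was 5.01 over the 9 and 5.22 over the table. Both Pou4f1 values exceeded both control values in 9 of 9 regions, against 96.5% of all regions. Both shares lay near those of the table. The regions had been called from the Pou4f1 signal, so a higher Pou4f1 value was built into the table. Of the 4 that did not pass, the start and downstream regions of Six6 and the Lhx2 intron each had one control at 0 and the other at 18.6 or above. Leaving out the library named IgG or the one named negative control moved their log2 differences to 1.97 or 6.61 at the Six6 start, to 7.90 or 2.12 past Six6 and to 7.34 or 3.05 in the Lhx2 intron. With a lone control, assumed to vary like the Pou4f1 libraries, limma gave the 9 regions the same SE of 0.73, and 94.4% or 95.9% of all regions passed, so the calls of these fits are not read for single regions. At the Rax start the difference was 0.36 without Pou4f1 replicate 1 and 2.43 without replicate 2. Without Pou4f1 replicate 1 or 2, the share of all regions that passed fell to 29.4% or 30.9%. The 3 regions of Six3 then missed the threshold (adjusted p from 0.0876 to 0.155, limma), although their differences stayed at 5.83 or 5.70 upstream, 2.41 or 2.50 in the 3′ UTR and 5.05 or 4.60 downstream. Pax6 and the exon 3 region of Rax, 2 of the 9, still passed. With 2 libraries a group, an exact permutation test cannot go below 0.333, and the labels do not say that replicates came from separate litters.

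The regions over a start of their own gene were the weaker ones. The 3 at starts of Pax6, Rax and Six6 had mean Pou4f1 signal from 55.9 to 102 and ranks from 6672 to 7865. The other 6 had means from 134 to 573 and ranks from 218 to 5430, so the ranges did not overlap in this ranking. Ranked by signal times length they did, with the Six6 start at 5770 above the 3′ UTR region of Six3 (5928) and the Lhx2 intron (6511). The same order, less marked, was present in the table, where the median of the mean Pou4f1 signal was 158 for the 5147 regions within 1 kb of a start of any gene and 212 for the 2881 others. Ranked within those 5147, the 3 regions over a start of their own gene were still low, at 4241 (Six6), 4538 (Pax6) and 5094 (Rax). The region past Six6, set above with the other 6, also belongs to the 5147 and ranked 1058 among them. Placed with the start regions, as in the table's split, its mean of 247 would make the ranges overlap. The ratio of replicate 2 to replicate 1 was 0.961 at Pax6, 0.536 at Six6 and 0.229 at Rax. In the table its median was 0.701 within 1 kb of a start and 1.16 elsewhere, and 1.65% of the regions near a start had a lower ratio than that of Rax. The region past Six6, which is over the start of Gm26709, had the opposite bias, with a ratio of 1.79 that exceeded 99.2% of the regions near a start.

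**Figure D3:**
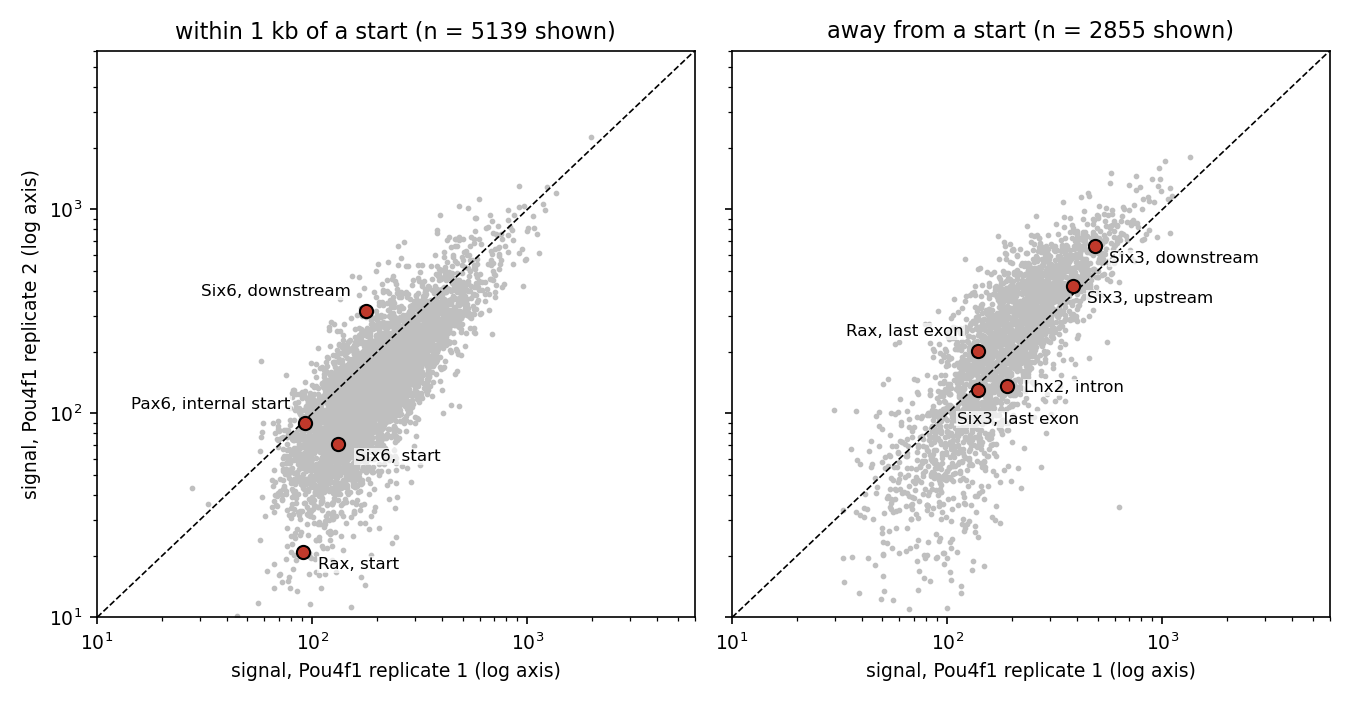
Signal of Pou4f1 replicate 1 against replicate 2 on log axes for regions within 1 kb of a start of any gene (left) and farther away (right), with the 9 regions as red points, the other regions in grey, the dashed line marking equal signal, and regions with a value under 10 left out. The start region of Rax lies far below the line (90.9 against 20.8), the one downstream of Six6 lies above it (177 against 318), and both outer regions of Six3 lie high on the right (383 against 421 and 485 against 661).

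Of the genes without a region, Vsx1 (chr2:150680702-150689360) came closest to the limit. The nearest region was 60.3 kb away, near the start of Entpd6, with 72.4 and 14.9 in Pou4f1 and 55.8 and 0 in the controls, and its replicate 2 value was below a control. It was very short, chr2:150749701-150749741, and ranked 7969. For Crx (chr7:15865947-15879968) the nearest region was 168 kb away at Bicra, and for Otx2 (chr14:48657677-48673819) it was 211 kb away at Tmem260, with a signal of 496 and 409 against 0 and 0. Meis2 (chr2:115863064-116065839) is the longest of the 9 genes, at 202776 bp, and had no region in a window of 302776 bp. Its nearest region was 670 kb away, and 7.35% of protein-coding genes were as far from a region as this. For Otx2 and Crx the shares were 20.9% and 24.6%, and for Vsx1 43.2%. A gene without a region had no interval in the table, which lists called regions only, so its signal below the calling limit is unknown.

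The 9 genes were set beside lists of genes with similar roles, counted without a test. At least 1 region within 50 kb was found for 5 of the 9 (55.6%) and for 53.6% of all 21755 protein-coding genes. For a region in the gene body the shares were 55.6% and 28%, and for one within 1 kb of a start of the gene 33.3% (3 of 9) and 25.1%. Among 14 other progenitor genes such as Sox2, Hes5 and Nr2e1, 11 had a region within 50 kb, 6 (42.9%) had one in the gene body and 6 had one at a start. Among 29 other retinal homeobox genes, the counts were 22, 13 (44.8%) and 9. Among 19 photoreceptor genes, 9 had a region within 50 kb. Of these 19, 1, the thyroid hormone receptor gene Thrb, had one in the gene body and at a start (5.26%). Crx and Otx2, the 2 photoreceptor regulators of the 9, had none by any of these measures. Among 15 RGC genes, 14 had a region within 50 kb and 12 (80%) had one at a start. This list holds genes that the paper reports as bound in these same data, such as Pou4f2, Sncg and Gap43. Its high share is therefore no independent check of the tissue. Of the regions near these lists, 5 of 13 passed as higher in Pou4f1 for other progenitor genes and 27 of 40 for other homeobox genes. For photoreceptor genes 5 of 11 passed as higher and for RGC genes 33 of 42, and 0 passed as lower in each list. Over all regions 64.8% passed as higher and 0.224% as lower, and the differences between lists were not tested. The homeobox list shares the region downstream of Six3 with the 9 genes through Six2.

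**Figure D4:**
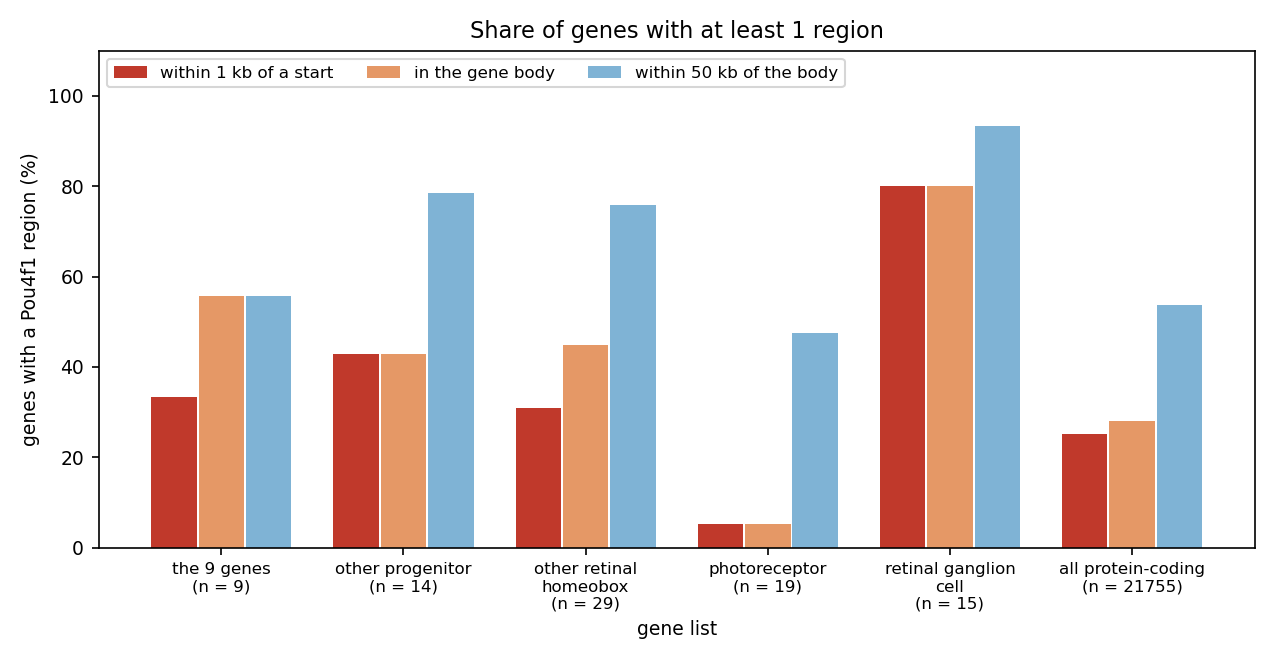
Share of genes, in %, with at least 1 region within 1 kb of a start, in the gene body and within 50 kb of it, for the 9 genes, 3 related lists, RGC genes and all protein-coding genes. The bars of the 9 genes are 33.3, 55.6 and 55.6%, those of all protein-coding genes 25.1, 28 and 53.6%, and RGC genes have the highest bars, at 80, 80 and 93.3%.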

How the data were processed

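Per the study's methods, paired-end reads were trimmed, masked for sequence of low complexity or quality and aligned by the authors to mm10 with Bowtie2 2.4.5, and SEACR in its relaxed mode called the regions. The deposited table gives a signal in 4 libraries for each of 8038 regions. Not given in the sources used here were its scaling, the depth of the libraries and any pooling before calling, so precision cannot be stated in reads. A column named negative control was taken as IgG, the only negative control described. Among control values, 46.2% (IgG) and 43.2% (negative control) were 0.

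The members and gene lists were chosen with earlier results of these data known. A gene of the photoreceptor list in the design was left out of the counts and is not reported here. All 9 regions are described, with values in every library. Pou4f1 was tested against IgG with limma 3.58.1 (R 4.3.3) on log2(signal + 1), two-sided, without covariates, filter or rescaling, and p-values were adjusted by Benjamini-Hochberg across the 8038 regions (threshold 0.05). A count test, written in the design, was not applicable to signal. The fit and motif search were tested on simulated data. Gene models were those of GENCODE M21, and bases were read from GRCm38.p6 with samtools 1.23.1 and Python 3.11.15. Distances ran from the midpoint of a region to a start. Alternatives were other scalings of the controls, pseudocounts, a low-signal filter, a variance trend, each library left out, and other distances, motif windows and rankings.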

Additional observations from a re-analysis of the deposited data

How the results depend on the processing

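The number of the 9 regions that passed as higher in Pou4f1 (5) was 1 (exon 3 of Rax) with equal column totals, a scaling that removes the difference in overall level between Pou4f1 and controls (median of all regions shifted by -2.48 on the log2 scale, 22.7% of all regions passing), and 8 with a pseudocount of 10, where 92.6% of all regions passed. Leaving out each library gave 2 to 9. The count was 2 without either Pou4f1 replicate, where 29.4% or 30.9% of all regions passed, and 8 or 9 without a control, where 94.4% or 95.9% passed, so it moved with the table. It was 4 or 5 with the controls doubled or multiplied by 4, a pseudocount of 0.1, a summed signal of 50 or more and a variance trend, with 26.8 to 66.4% of all regions passing. With equal column totals the log2 difference turned to -2.54 at the Rax start and to -1.53 in the 3′ UTR of Six3, and with controls multiplied by 4 to -0.54 at the Rax start. No other difference changed sign under the alternatives run. Both Pou4f1 values above both controls held in 9 regions as deposited and in 3 with equal column totals (39.1% of all regions). The POU element was in 1 of the 9 regions over the whole region and in 0 within the central 200 bp, against 4.38% of all regions. By signal times length the 9 regions ranked from 307 to 7754, against 218 to 7865 by mean signal. Regions numbered 6 in the gene body, 8 within 10 kb and 13 within 100 kb, where 6 genes had one. No paired analysis was possible because the control columns carry no replicate number. With unknown depth and controls often at 0, small differences could not be resolved.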
